A study of Drosophila melanogaster with 4 samples.

Results

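The Snail family of Drosophila melanogaster is a group of zinc finger proteins that bind DNA at E-box sequences and repress transcription. The members described here are sna (snail, CG3956), esg (escargot, CG3758), wor (worniu, CG4158) and scrt (scratch, CG1130), 4 of the 9737 genes tested on the arrays of this series. Their probes were found by annotation ID, but the family was chosen with earlier results of these data known. Of the 32162 gene probes, 6 were designed to the members: 2 for sna, 1 for esg, 1 for wor and 2 for scrt. All 6 probes were well above background in both genotypes on all 4 arrays, so no member was lost to the filter on dim probes.

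As background, sna acts early in the presumptive mesoderm, where Dorsal and Twist switch it on and where it keeps neurectodermal and mesectodermal genes silent so that the cells can invaginate. Later it is expressed again in neuroblasts, the stem cells of the nervous system, where it acts together with esg and wor in asymmetric division. The gene esg is also known for imaginal primordia, where it keeps cells diploid, and for tracheal fusion cells. The gene wor is a marker of neuroblasts, and scrt is a pan-neural gene expressed in neuronal precursors and neurons. Snail and its relatives recruit co-repressors such as CtBP.

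The arrays compared 8-miR cluster null embryos with w1118 embryos, the white-eyed laboratory strain that served as wild type, and w1118 was given as the genetic background of both genotypes. Flies were kept at 25 degrees C, eggs were laid for 2 h and embryos were aged for 6 h, so total RNA came from whole embryos at 6 to 8 h after egg laying. Each of 3 replicates put 1 null extract and 1 w1118 extract on an Agilent 2-colour array, isolated independently according to the design text, and the extracts of replicate 1 also went onto a further array with exchanged dyes. How many embryos were pooled in an extract is not given in the sources used here. The labels conflict: titles and source names give a null of the 8-miR cluster, the genotype field gives a miR-8 cluster null, and the treatment text gives embryos homozygous for ectopic mir-3. The 8-miR cluster is a group of microRNA genes switched on in the early embryo and known for clearing maternal transcripts. Named probes covered 0 of the 8 microRNAs, and the deletion itself was therefore not checked on the arrays. Ratios below are log2 of null over w1118 by the dyes in the labels, positive where the null was higher, with the SD over 3 replicates after the arrays of replicate 1 were averaged.

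The snail gene sna was higher in null embryos, and it was the member with the largest ratio in these data. By its brighter probe, A_09_P106520, the authors' processed spot intensity in the null was 10500 and 10400 on the unswapped and swapped arrays of replicate 1, 9170 in replicate 2 and 9585 in replicate 3. In w1118 the same spots gave 5020, 5100, 4050 and 4557 in that order. Every null value lay above every w1118 value, and exchanging the dyes left both genotypes close to where they were. The normalised log2 ratio was 1.08 on the unswapped array of replicate 1, 1.00 on its dye-swap array, 1.28 in replicate 2 and 1.11 in replicate 3. The mean was 1.14 ± 0.12 (SD, n = 3), which is 2.21-fold, with a 95% interval of 1.01 to 1.28 (limma adjusted p = 1.61e-05). The RNA came from whole embryos, so more cells expressing sna and more RNA in each cell cannot be told apart.

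The other sna probe, A_09_P044801, was spotted in duplicate and gave a larger ratio. Its mean processed intensity over the duplicate spots was 8405, 8700, 6690 and 7368 in the null, for replicate 1, its dye swap, replicate 2 and replicate 3. The w1118 means were 3190, 3095, 2495 and 2786 in the same order. The ratios of 1.42, 1.41, 1.46 and 1.44 were close together, and their mean was 1.44 ± 0.02, or 2.71-fold (95% interval 1.33 to 1.55, limma over all kept probes, adjusted p = 1.95e-06). Both probes are annotated to the transcript CG3956-RA. The larger ratio of the dimmer probe was seen in each replicate, with differences of 0.37, 0.18 and 0.33, so the size of the sna difference depended on the probe while its direction did not. Over both probes, the null channel was the brighter in 12 of 12 spot readings, which are repeated readings of 3 replicates and not independent.

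**Figure D1:**
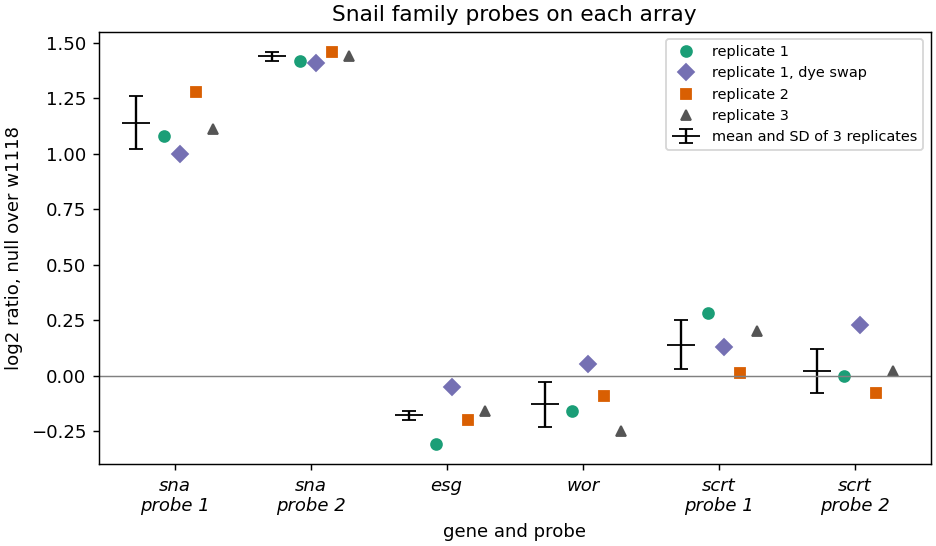
Log2 ratio of null over w1118 (y axis) for each probe of sna, esg, wor and scrt (x axis); coloured symbols are the 4 arrays, and the bar gives the mean and SD over 3 replicates. All 8 sna values lie between 1.00 and 1.46, while all values of the other members lie between -0.31 and 0.28.

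The difference in sna has to be read against a comparison in which most genes were called. Of 9737 tested genes, 5327 passed the test, so 54.7% were called in either direction (28.1% higher and 26.6% lower in the null). The median absolute log2 ratio was 0.17, and the median of all genes was 0.01. By its signed ratio sna ranked 150 from the highest, and 1.54% of tested genes had a ratio at least as high. In either direction, 2.98% had an absolute ratio at least as large. On single arrays its rank from the highest was 164 and 191 in replicate 1 (unswapped and swapped), 123 in replicate 2 and 160 in replicate 3. Among the family 1 member was called higher and 1 lower, or 50% against the 54.7% of all genes, so the count of called members was near the background.

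**Figure D2:**
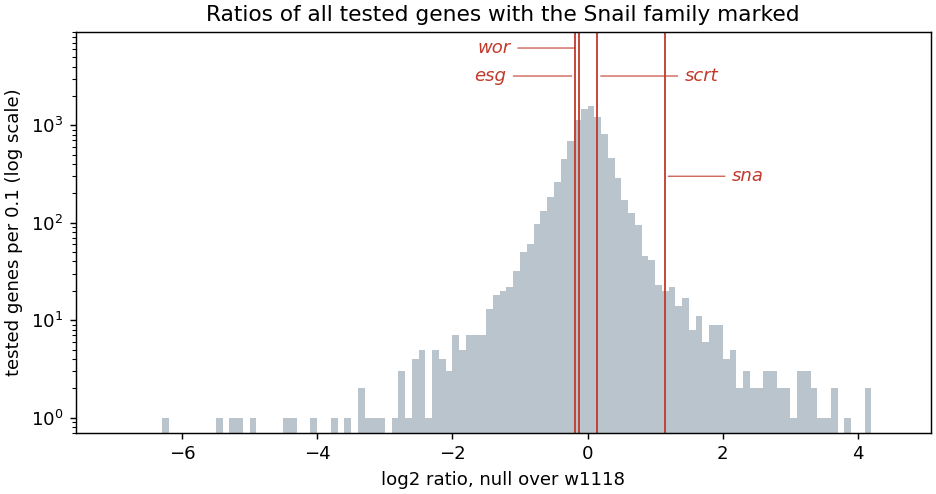
Histogram of log2 ratios of null over w1118 (x axis) for the 9737 tested genes, counted per 0.1 on a log scale (y axis), with the 4 members as red lines. The lines of esg, wor and scrt stand in the body of the distribution, and that of sna stands in its upper tail at 1.14.

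The escargot gene esg was slightly lower in null embryos. Its probe, A_09_P043141, gave a processed intensity in the null of 4970 and 5580 on the arrays of replicate 1, 4050 in replicate 2 and 4263 in replicate 3, against 6000, 5970, 4820 and 5184 in w1118. On each array the null value was the lower (4 of 4 spots), although the ranges of the genotypes overlapped across arrays. The log2 ratios were -0.31, -0.20 and -0.16 on the unswapped arrays of replicates 1, 2 and 3 and -0.05 on the dye-swap array. The mean was -0.18 ± 0.02 (n = 3), or 1.13-fold lower, with a 95% interval of -0.28 to -0.07 (limma adjusted p = 0.0135). The SD was taken after averaging the arrays of replicate 1, whose ratios differed by 0.26 from each other.

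The esg call did not hold in 4 of 16 alternative settings. With replicate 1 taken from its dye-swap array alone the ratio was -0.14 (adjusted p = 0.139), and with the scanner's processed signals it was -0.20 (adjusted p = 0.0882). Without replicate 2 it was -0.17 (adjusted p = 0.0936), and without replicate 3 it was -0.19 (adjusted p = 0.0849). Of all tested genes, 48.6% had an absolute ratio at least as large as that of esg, so a shift of this size was common on these arrays.

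The worniu gene wor did not pass the test. Its probe, A_09_P043146, was spotted in duplicate, with mean processed intensities in the null of 10800 and 12100 on the unswapped and swapped arrays of replicate 1, 9810 in replicate 2 and 9977 in replicate 3. The w1118 means were 12000, 11500, 10855 and 12159. The null was the dimmer on the unswapped arrays and the brighter on the dye-swap array. The log2 ratios were -0.16, -0.09 and -0.25 on the unswapped arrays of replicates 1, 2 and 3 and 0.05 on the swap. Their mean over replicates was -0.13 ± 0.10, with an unadjusted 95% interval of -0.26 to 0.00 (limma unadjusted p = 0.0497, adjusted p = 0.0817). Within replicate 1 the sign of wor differed between the dye orientations. A dye term fitted over the 4 arrays gave -0.06 (adjusted p = 0.292), whereas the unswapped array alone for replicate 1 gave -0.17 (adjusted p = 0.0152) and weighting the replicates gave -0.18 (adjusted p = 0.0122).

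The scratch gene scrt did not pass the test by either probe. The brighter probe, A_09_P011241, had processed intensities in the null of 9550, 8840, 7890 and 8407 for replicate 1, its dye swap, replicate 2 and replicate 3, against 7450, 8230, 6760 and 6262 in w1118. The processed null value was the higher on each array, while the normalised log2 ratio was 0.28 and 0.13 in replicate 1 (unswapped and swapped), 0.01 in replicate 2 and 0.20 in replicate 3. The mean was 0.14 ± 0.11, with a 95% interval of 0.001 to 0.272 that is not adjusted for the number of genes (limma unadjusted p = 0.0489, adjusted p = 0.0807). The other probe, A_09_P050771, gave 7190, 7540, 6700 and 7360 in the null and 7070, 6690, 6990 and 7301 in w1118. Its mean ratio was 0.02 ± 0.10 (95% interval -0.12 to 0.15, limma over all kept probes, adjusted p = 0.814). The brighter probe was called higher with the scanner's processed signals, at 0.33 (adjusted p = 0.023), and in the authors' series matrix, at 0.29 (adjusted p = 0.0139). It also passed with array weights (adjusted p = 0.0359) and without replicate 2, at 0.20 (adjusted p = 0.0403). It did not pass with median centring in place of loess (0.09, adjusted p = 0.357) or with the mean of both probes (0.08, adjusted p = 0.239).

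**Figure D3:**
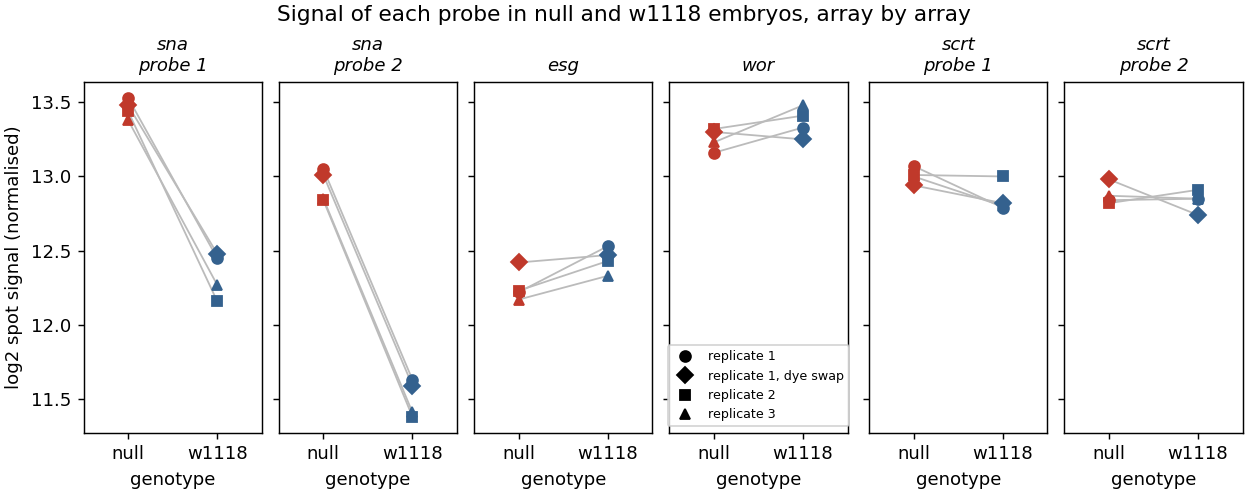
Normalised log2 spot signal (y axis) of each probe in null embryos (red, left) and w1118 embryos (blue, right), with grey lines joining the channels of 1 array and symbols giving the array. The null lies above w1118 on every array for both sna probes, and the lines of the other probes are shallow; levels of different probes are not comparable.

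On the normalised signal scale sna averaged 13.44 ± 0.06 in the null and 12.30 ± 0.15 in w1118 by its brighter probe (SD, n = 3 each). By its dimmer probe it averaged 12.91 ± 0.10 in the null and 11.47 ± 0.13 in w1118. Signals of esg were 12.24 ± 0.08 in the null and 12.42 ± 0.09 in w1118, and those of wor were 13.26 ± 0.05 in the null and 13.39 ± 0.10 in w1118. The brighter scrt probe gave 13.00 ± 0.01 in the null and 12.87 ± 0.12 in w1118. Of the 32 spot readings of the family none was flagged as an outlier (0) and none was saturated (0). Median spot brightness ran from 2303 to 17449, against a local background of 16.5 to 74. The number of arrays limits the precision of all these values.

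The members were compared with each other replicate by replicate, as a difference of log2 ratios. The ratio of sna exceeded that of esg by 1.22, 1.48 and 1.27, that of wor by 1.10, 1.37 and 1.36, and that of scrt by 0.84, 1.27 and 0.91. Each of these differences was positive in 3 of 3 replicates, and the 95% interval of sna (1.01 to 1.28) did not reach that of any other member. An exact sign-flip permutation test (two-sided) over 3 replicates cannot go below p = 0.25, which is the value reached by each sna difference (adjusted p = 0.3 over 6 comparisons), so that test could not pass. The ratios of esg and wor differed by -0.05 ± 0.12 and changed order between replicates. The ratio of scrt lay above that of esg by 0.38, 0.21 and 0.36 and above that of wor by 0.26, 0.10 and 0.45.

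The genes esg, wor and sna lie on chromosome arm 2L in that order, and scrt lies on 3L. The Release 6 table lists 7 genes between esg and wor (2 of them protein-coding) and 5 between wor and sna (1 protein-coding), of which 0 were tested, so the members are neighbours among tested genes only. The next tested gene beyond sna, Tim17b2, a mitochondrial import gene, rose by less (0.34 ± 0.09, limma adjusted p = 0.00217), and after it lace, which encodes a subunit of serine palmitoyltransferase, fell (-0.26 ± 0.19, adjusted p = 0.0275), while CG15255 did not pass (0.09 ± 0.08). On the side of esg, nht, a testis-specific TAF homologue, did not pass (0.11 ± 0.05), UK114 fell (-0.23 ± 0.02) and Cul3, a ubiquitin ligase scaffold, rose (0.22 ± 0.04). The difference in sna was therefore larger than that of any of the 3 nearest tested genes on each side of this group.

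Before scrt in the gene order the nearest tested gene was CG12605, a Snail-related zinc finger gene, which fell by its brighter probe (-0.21 ± 0.04, adjusted p = 0.00829) while its other probe gave 0.19. Next to it CG10863 fell (-0.44 ± 0.27), and CG10866 did not pass (0.09 ± 0.07). On the other side CG14985 fell (-0.46 ± 0.10) and the forkhead gene FoxL1 rose (0.26 ± 0.06), and Mul1 did not pass (0.07 ± 0.03). Over the 12 neighbours that are not members, 3 rose, 5 fell and 4 did not pass. Of all tested genes 54.7% were called, 28.1% higher and 26.6% lower in the null.

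**Figure D4:**
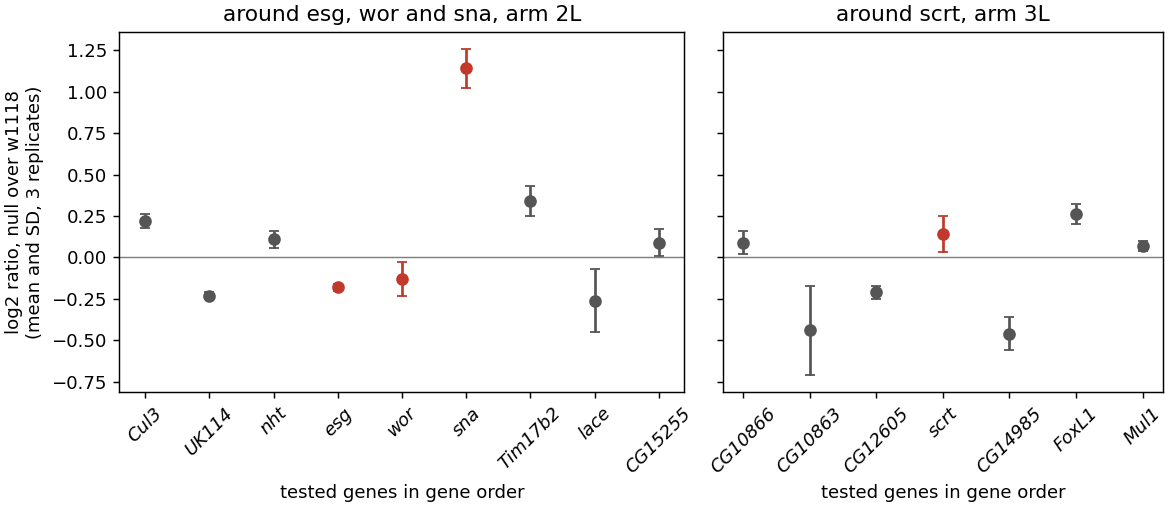
Mean log2 ratio of null over w1118 with the SD of 3 replicates (y axis) for tested genes in gene order (x axis) around esg, wor and sna on 2L and around scrt on 3L; members are red. Neighbours lie between -0.46 and 0.34, and sna stands above them at 1.14.

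Kah, the other Snail-related zinc finger gene outside the 4 members, fell slightly, at -0.22 ± 0.07 (limma adjusted p = 0.0106). Over the 4 arrays its ratio ran from -0.29 to -0.14.

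Genes known as upstream regulators of sna in the early mesoderm had ratios between -0.37 and 0.38. Whether they act on sna at the age sampled here, 6 to 8 h, was not tested. Of 9 Toll, Dorsal and Twist pathway genes 1 rose, 1 fell and 7 did not pass, so 22.2% were called against 54.7% of all tested genes, and the median was -0.05 against 0.01 for all genes. The gene dl (dorsal), which encodes the NF-kappaB factor that activates sna, fell, at -0.37 ± 0.04 (adjusted p = 0.000727), and its other kept probe gave -0.27. For spz, the Toll ligand, the brighter probe rose, at 0.38 ± 0.11 (adjusted p = 0.00159) but the other gave -0.40. The bHLH activator twi (twist) gave -0.05 ± 0.03 and 0.00 by its other probe, and did not pass (adjusted p = 0.329). The Dorsal inhibitor cact gave -0.07, the receptor Tl -0.09 and the early genome activator zld 0.10, none of which passed.

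Genes of the neurogenic ectoderm and mesectoderm, among them known targets of Snail repression, differed in both directions. Of 19 tested, 8 fell, 3 rose and 8 did not pass, with a median of -0.11. The largest ratio was in ths (thisbe), an FGF8-like ligand for the mesodermal FGF receptor, at 1.48 ± 0.08 (adjusted p = 2.91e-06), with 2.39 by its other probe. Also higher was wntD, a feedback inhibitor of Dorsal (0.63 ± 0.27, adjusted p = 0.00208), though its ratio on single arrays ran from 0.17 to 0.88.

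In the same list the ubiquitin ligase gene neur fell at -0.66 ± 0.05 (other probe -0.38), the proneural gene l(1)sc at -0.57 ± 0.26 and rho, an intramembrane protease that releases EGF ligands, at -0.56 ± 0.06. On single arrays l(1)sc ran from -0.74 to -0.04, and its call was lost in 2 of 16 alternative settings. The Bearded family gene Tom fell at -0.53 ± 0.07. The midline gene sim (-0.12 ± 0.04, adjusted p = 0.0542), vnd (-0.11 ± 0.03), sog (-0.02 ± 0.21), brk (0.13 ± 0.15) and the E-cadherin gene shg (0.06 ± 0.06) did not pass. The share called, 57.9%, was near the 54.7% of all genes.

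Genes of mesoderm invagination and early mesoderm showed ratios between -0.44 and 0.25. Of 12 tested 4 rose, 4 fell and 4 did not pass, with a median of 0.08. The share called was 66.7%, against 54.7% of all tested genes. The apical membrane gene T48 fell at -0.44 ± 0.15, the integrin gene if at -0.26 ± 0.01, the G protein gene cta at -0.24 ± 0.23 and trbl at -0.22 ± 0.02, while NetA (0.25 ± 0.13) and stg, the Cdc25 phosphatase gene (0.20 ± 0.08), rose. The secreted ligand gene fog (0.13 ± 0.06) and the FGF receptor gene htl (0.11 ± 0.05) did not pass. The call of cta was lost in 12 of 16 alternative settings and that of stg in 6 of 16. Among 7 co-repressor genes 2 fell and 5 did not pass (28.6% called, against 54.7% of all tested genes). HDAC1 gave -0.18 ± 0.13 and Sin3A -0.14 ± 0.02, and in both the other probe was positive, at 0.15 and 0.19. CtBP, the co-repressor that Snail binds directly, gave -0.11 ± 0.10 by its brightest probe and did not pass, and its other probes gave -0.14 to 0.28.

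Genes of neuroblast division, the process in which sna, esg and wor act together, also went both ways. Of 18 tested 6 rose, 4 fell and 8 did not pass, with a median of 0.02. The share called, 55.6%, was near the 54.7% of all tested genes. The zinc finger gene klu rose at 0.68 ± 0.09 by its brighter probe and gave 0.00 by the other. Further, cnn (0.36 ± 0.21), the polarity gene par-6 (0.34 ± 0.07) and numb (0.32 ± 0.07) rose, but the other probes of numb gave -0.46 to -0.17. The tumour suppressor l(2)gl fell at -0.48 ± 0.15 and brat at -0.39 ± 0.26, where the other brat probe gave 0.33 and the call was lost in 6 of 16 alternative settings. The gene insc, whose expression in neuroblasts depends on the Snail family, gave -0.05 ± 0.08 and did not pass (adjusted p = 0.404), and neither did the neuroblast genes dpn (-0.09 ± 0.12) and ase (-0.04 ± 0.15).

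Neuronal genes, as a setting for scrt, went both ways: of 9 tested 5 fell, 2 rose and 2 did not pass, with a median of -0.21. The share called was 77.8%, against 54.7% of all tested genes. The synaptotagmin gene Syt1 fell at -0.55 ± 0.18, nSyb at -0.34 ± 0.08, the neuronal RNA-binding protein gene elav at -0.30 ± 0.23, onecut at -0.30 ± 0.06 and Rbp9 at -0.21 ± 0.16. The elav call was lost in 7 of 16 alternative settings (-0.17 without replicate 3) and its other probes gave -0.15 to 0.03, and the Rbp9 call was lost in 4 of 16. The active zone gene brp gave 0.17 ± 0.10 as a call (adjusted p = 0.0321) that held in 5 of 15 alternative settings. Of 10 imaginal and tracheal genes, as a setting for esg, 2 rose, 1 fell and 7 did not pass. The share called was 30%, against 54.7% of all tested genes. The Sp-family gene btd fell at -1.20 ± 0.09 (other probe -1.33), and ap (0.47 ± 0.07) and vg (0.18 ± 0.07) rose, although other probes of ap gave -0.46 to 0.06 and that of vg gave -0.16, and the vg call was lost in 6 of 16 alternative settings. In all, 13 of the 30 called list genes with further kept probes had at least 1 probe of the opposite sign.

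**Figure D5:**
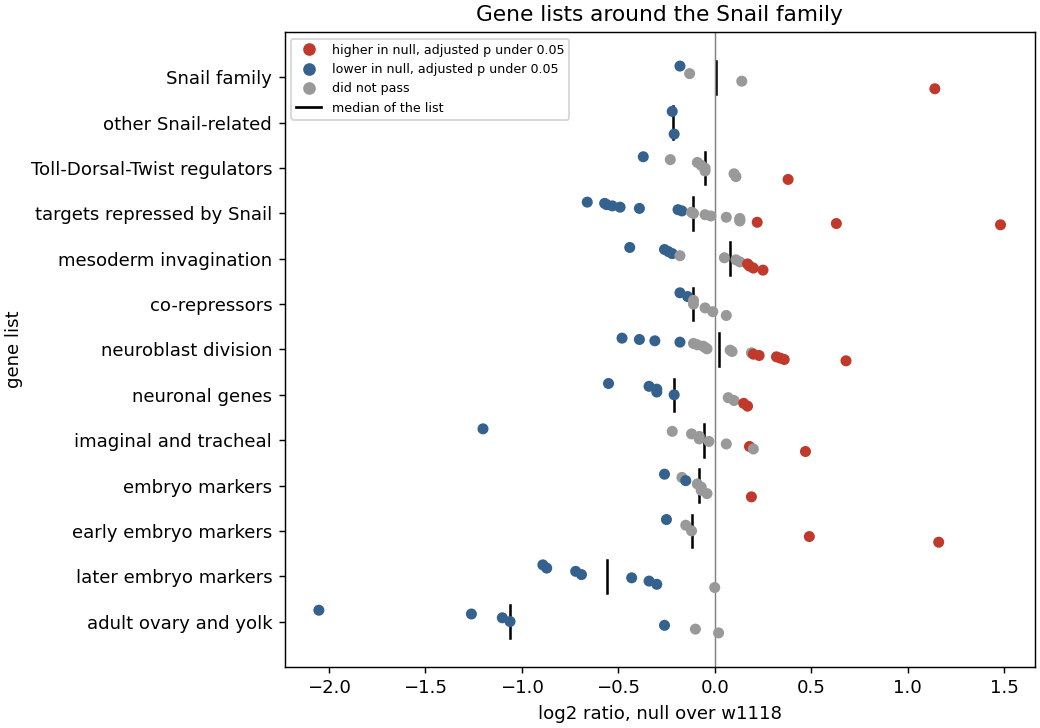
Log2 ratio of null over w1118 (x axis) of each tested gene in the lists around the Snail family (y axis); red is higher and blue lower in the null at a limma adjusted p under 0.05, grey did not pass, and the black line is the median of the list. The list medians of the developmental groups lie between -0.22 and 0.08, those of later embryo markers and adult ovary and yolk genes at -0.56 and -1.06.

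Markers of tissue and age were read beside these values. Called were 37.5% of tested embryo markers and 87.5% of later differentiation markers, against 54.7% of all tested genes. For early embryo genes the share was 60%, and for ovary and yolk genes 71.4%. All 8 embryo markers were tested: 1 rose, 2 fell and 5 did not pass, with zfh1 at -0.26 ± 0.03, Ubx at 0.19 ± 0.07 and en at -0.15 ± 0.02 as the calls (lost in 2, 5 and 6 of 16 alternative settings for zfh1, Ubx and en). Their summed signal was 37724 to 39123 in the null and 38358 to 40495 in w1118 over the 4 arrays. Of 8 later differentiation markers 7 fell, with a median of -0.56 and a summed signal of 52464 to 61218 in the null and 55249 to 69921 in w1118. Among them Gasp gave -0.89 ± 0.08, Mlc1 -0.87 ± 0.13, wupA -0.72 ± 0.09 and Mhc -0.69 ± 0.19 (other Mhc probes -0.68 to -0.57). Gasp reached -1.48 in the authors' series matrix. Tm2 gave -0.43 ± 0.09, but -0.01 with processed signals (limma adjusted p = 0.972) and -0.05 in the series matrix. The call was lost in 1 of 16 alternative settings for Mhc, in 3 of 16 for Tm2 and in 7 of 16 for elav. Of 5 tested genes of early embryos 2 rose, 1 fell and 2 did not pass, with srw, the shrew gene, at 1.16 ± 0.08, slam at 0.49 ± 0.07 and halo at -0.25 ± 0.09, and nullo and bnk were not above background. The srw ratio was 2.25 with the scanner's processed signals, 2.21 in the series matrix and 1.81 with a normexp offset of 0. Their summed signal was 5672 to 6838 in the null and 5197 to 6414 in w1118. Of 7 ovary and yolk genes 5 fell, with a summed signal of 969 to 1007 in the null and 1960 to 2111 in w1118, and Vm26Aa gave -2.05 ± 0.06, Cp15 -1.10 ± 0.08, Yp2 -1.06 ± 0.15 and Yp1 -0.26 ± 0.17. Vm32E was not well above background in the null and was at least 2.29-fold lower there (limma adjusted p = 3.28e-06). The size of the Yp2 ratio depended on the background correction, at -2.52 with processed signals, -2.56 in the series matrix and -1.97 with a normexp offset of 0, and Yp2 dropped out where both channels had to be above background on all arrays. Vm26Aa ran from -2.88 to -2.01 over the alternatives. The part of embryo age or of maternal tissue in the ratio of sna was not tested.

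The genes whose ratios over the 4 arrays were most like those of each member were found by Euclidean distance among 9171 genes above background in both genotypes. For sna they were CadN, the N-cadherin gene (distance 0.123, mean ratio 1.12), Alg3 (0.181, mean ratio 1.16) and CG4630 (0.183, mean ratio 1.12). For esg they were galene (distance 0.022), CG1943 (0.036) and spg (0.039), for wor sip2 (0.045), CG6607 (0.050) and Haspin (0.057), and for scrt CG10195 (0.060), ND-49 (0.069) and CG16700 (0.084). The shorter distances of the last 3 members go with ratios near 0, where most genes lie. All these ratios share the same 4 arrays, so likeness is a description.

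The arrays lay on 2 slides, replicate 1 with its dye swap on slide 1 and the other replicates on slide 2, and each slide held both genotypes. The brighter sna probe gave 1.04 on slide 1 and 1.20 on slide 2, and the dimmer probe 1.42 and 1.45. The values on slide 1 and slide 2 were -0.18 and -0.18 for esg, -0.05 and -0.17 for wor and 0.20 and 0.10 for the brighter scrt probe. Pearson's r over kept probes was 0.941 to 0.958 between unswapped arrays and 0.824 to 0.883 between the dye-swap array and each of them. These are correlations across probes of the same hybridisations, not across independent samples.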

How the data were processed

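Arrays were scanned and spots extracted with Agilent Feature Extraction 10.1.1.1, per the file headers. The deposited intensity columns used were the median spot and local background brightness, and the processed intensity that the authors' scanner software background-subtracted and dye-normalised, per the file headers. The deposited log10 ratio is Cy5 over Cy3. The authors' series matrix holds deposited log2 values that followed the processed ratios with a slope of 1 and run w1118 over null, and their signs were turned here. Its column medians were -0.137, 0.071, 0.128 and -0.041; what centring made them is not given in the sources used here.

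Here, normexp (offset 50) and within-array loess (limma 3.58.1, R 4.3.3) were applied, control and outlier spots had weight 0, and spots of a probe were averaged. A probe was kept (19753 were) if 1 genotype was well above background in 2 or more of the 3 replicates, replicate 1 counting only where both its arrays passed. A gene was its brightest kept probe. limma's lmFit and eBayes gave p-values, Benjamini-Hochberg adjusted over 9737 genes, with 0.05 as threshold. Well above background were 58.01% to 65.79% of gene spots in the null and 56.71% to 65.47% in w1118. Names and gene order came from a Release 6 table, which named 19482 of 32162 probes. The design was annotated on an earlier build, so no coordinates are given.

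Members and gene lists were chosen with earlier results of these data known. List genes named are the up to 6 called with the largest ratio, plus genes that did not pass, chosen after their values were seen. Of 114 list genes 108 were tested. The pipeline was tested on simulated data without added dye or slide effects. That test included no change as small as those of esg, wor and scrt, so it cannot show how such changes are recovered. Alternatives covered background correction, normalisation, filter, probe summary, dye swap, slide, test, weights and each replicate left out.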

Additional observations from a re-analysis of the deposited data

How the results depend on the processing

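The sna ratio kept its direction and its call in all 16 alternatives (1.08 to 1.29, and 1.08 to 1.20 with a replicate left out). For esg the call was lost with processed signals (-0.20) and with replicate 1 from its dye-swap array alone (-0.14). It was also lost without replicate 2 and without replicate 3, and leaving out a replicate gave -0.19 to -0.17. For wor a call appeared with replicate 1 from its unswapped array alone (-0.17) and with array weights (-0.18), and leaving out a replicate gave -0.17 to -0.07. For scrt a call appeared with processed signals (0.33), the series matrix (0.29), array weights (0.14) and without replicate 2 (0.20). Leaving out a replicate gave 0.10 to 0.20. The counts of genes called higher and genes called lower were 1747 and 1681 with replicate 1 from its dye-swap array alone, 1062 and 1023 without moderation, and 1768 to 3003 and 1713 to 2846 with a replicate left out, fewest without replicate 3. Reversed signs were seen with the mean of kept probes for spz (-0.01), Sin3A (0.02) and numb (-0.15), and without the background filter for brp (-0.07). Other kept probes of spz, Sin3A and numb had the opposite sign. Over 49 list genes and their alternatives (781 comparisons), 665 kept direction and call, 112 lost the call, HDAC1 in 10 of 16, and these 4 reversed. List medians were recomputed under the same settings, a choice made after seeing the data: those of co-repressors (-0.16 to 0.02), neuroblast division genes (-0.05 to 0.09) and early embryo markers (-0.15 to 0.01) crossed 0. The analysis was paired throughout, since each array sets 1 null extract against 1 w1118 extract, and no further replicate block could be added to such ratios. The causes of the lost and gained calls were not tested. With 3 replicates, of which 2 exist in 1 dye orientation only, the number of arrays limits the precision.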
